A study of Mus musculus with 6 samples.

Results

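The genes of the major histocompatibility complex (MHC) and of peptide presentation were followed here in the caudal artery, the artery of the mouse tail. Members were all probe sets whose sole gene symbol in the platform annotation began with H2- or was B2m, Tap1, Tap2, Tapbp, Cd74, Ciita, Psmb8, Psmb9 or Psmb10. This rule, which used no measured value, gave 63 of the 45037 probe sets other than chip controls, and these 63 belonged to 32 genes. A probe set is a group of short probes that together report a transcript. By role, 13 probe sets belonged to the classical class I genes, 2 to their light chain, 13 to other class I genes, 11 to peptide supply, 12 to class II chains and 11 to class II loading and control. The remaining one reported H2-Ke6, which lies among the H2 genes but encodes a hydroxysteroid dehydrogenase and no MHC protein.

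Arteries came from mice of 4 weeks (postnatal day 28) that were either Notch3+/+ or Notch3-/-, and each genotype was measured in 3 pools. The Notch3+/+ replicates 1, 2 and 3 pooled 4, 3 and 3 mice, and each Notch3-/- replicate pooled 4 mice. Each pool was 1 array and is counted as 1 sample, so p-values weigh a difference between genotypes against the spread between pools. That spread was estimated for each probe set with help from all probe sets tested. Notch3 is a receptor of arterial smooth muscle, and the labels describe neither the targeted allele nor the strain of either genotype.

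MHC class I molecules consist of a heavy chain and the light chain B2m, and show fragments of proteins made inside the cell to CD8 T cells. The fragments are cut by the proteasome, pumped into the endoplasmic reticulum by Tap1 and Tap2, and fitted to class I with the help of Tapbp. MHC class II molecules pair an alpha with a beta chain and show fragments of ingested proteins to CD4 T cells, mainly on macrophages, dendritic cells and B cells. The H2 region holds most of these genes, is among the most variable stretches of the mouse genome between strains, and lies on the same chromosome as Notch3.

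Position and sequence are given first because the H2 genes lie close to Notch3. RefSeq's table of assembly GRCm38.p6 held all 32 member genes, found by their gene numbers. Of these, 26 lay beyond Notch3 on chromosome 17 in the main H2 cluster, with 76 genes between Notch3 and the first of them. Another 2 (H2-D4 and H2-T18) were listed on chromosome 17 outside the cluster, and 4 (B2m, Ciita, Cd74 and Psmb10) on other chromosomes. The table lists 4 members, H2-Ea, H2-Q5, H2-Bl and H2-D4, as pseudogenes in the C57BL/6J reference.

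Promoter sequences from RefSeq were found for 22 of the 32 genes, as windows from 250 bases before to 50 bases after a gene's start. The stretches below belong to a classical class I gene, to the class I gene with the largest difference between genotypes, to a class II gene, and to the gap of 225 bases that Psmb9 and Tap1 share, since the 2 genes are read outward from it. They run 5′ to 3′ up to the base before the start, in GRCm38.p6, at chr17:34000348-34000597 on the minus strand for H2-K1, chr17:37269984-37270233 on the plus strand for H2-M3, chr17:34287824-34288073 on the minus strand for H2-Aa and chr17:34187331-34187555 on the plus strand for the shared gap. Capitals mark matches, on either strand, to the motifs named after them.
H2-K1: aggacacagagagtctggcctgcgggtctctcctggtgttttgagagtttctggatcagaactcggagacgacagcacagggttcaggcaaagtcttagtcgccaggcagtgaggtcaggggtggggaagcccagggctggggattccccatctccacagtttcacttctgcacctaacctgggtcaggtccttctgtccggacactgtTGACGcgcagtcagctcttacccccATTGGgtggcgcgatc
H2-M3: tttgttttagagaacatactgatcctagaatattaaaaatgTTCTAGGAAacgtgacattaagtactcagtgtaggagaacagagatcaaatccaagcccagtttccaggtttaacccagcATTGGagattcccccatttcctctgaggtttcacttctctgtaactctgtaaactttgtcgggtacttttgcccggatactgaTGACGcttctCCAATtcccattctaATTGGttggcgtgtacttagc
H2-Aa: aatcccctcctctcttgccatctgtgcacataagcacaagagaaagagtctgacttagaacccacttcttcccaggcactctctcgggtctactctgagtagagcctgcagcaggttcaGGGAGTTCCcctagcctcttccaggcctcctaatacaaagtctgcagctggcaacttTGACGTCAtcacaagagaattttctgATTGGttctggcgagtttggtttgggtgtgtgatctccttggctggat
Psmb9-Tap1 gap: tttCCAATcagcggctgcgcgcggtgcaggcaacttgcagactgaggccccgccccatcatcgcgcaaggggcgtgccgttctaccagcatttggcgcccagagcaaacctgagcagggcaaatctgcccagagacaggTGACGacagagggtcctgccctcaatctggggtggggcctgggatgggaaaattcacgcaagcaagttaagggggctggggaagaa

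The motifs were CCAAT (the Y box), TGACG (the core of the X2 box) and TTCNNNGAA (gamma-activated site). They also included GAAANNGAA (a strict form of the interferon-stimulated response element core) and GGGANTTCC (a strict NF-kappaB form). In the whole windows, CCAAT was found in 17 of 22 member genes (77.3%) against 37.4% of all 32851 windows, and TGACG in 8 of 22 (36.4%) against 20.8%. Psmb9 and Tap1 are in both counts, and their windows share the gap printed above with its CCAAT and TGACG matches. The gamma-activated form was found in 3 of 22 (13.6% against 8.30%) and the NF-kappaB form in 1 (4.55% against 1.68%, H2-Aa). The strict interferon form was found in 1 (4.55% against 8.56%, B2m). That form does not match gtttcacttct, a similar stretch printed above in H2-K1 and H2-M3. Its count therefore does not show whether members carry the interferon element less often than other genes. The strict NF-kappaB form likewise does not match ggggattcccc, a similar stretch printed above in H2-K1. The NF-kappaB count therefore does not show that H2-Aa alone carries such a site. H2-K1, H2-M3 and H2-Aa each carried TGACG followed by CCAAT or its complement ATTGG towards the start. In H2-Aa 2 matches to TGACG, 1 on each strand, overlapped. These are matches of letters, and binding at them was not measured.

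No member passed the test between genotypes. The values are log2 expression, and the test was limma with Benjamini-Hochberg adjustment over all 27027 probe sets whose mean reached the 40th percentile. Of the 63 member probe sets, 36 (21 genes) reached it and 27 did not. Of these 36, 0 had an adjusted p under 0.05, against 68 of 27027 (0.252%) over all probe sets. An unadjusted p under 0.05 was found for 4 of 36 members (11.1%), near the 11.4% over all probe sets. Of the 4, 3 were lower in Notch3-/- (4.85% over all), namely H2-M3, H2-Ea and Tap1, and 1 was higher (6.5% over all), a probe set of H2-Aa. Leaving out an array moved their number to 1 (replicate 2 or 3 of Notch3+/+), 2 (replicate 2 of Notch3-/-) or 8 (replicate 1 of Notch3+/+). The genotypes did not overlap for 2 of 36 members (5.56%), H2-M3 and H2-Ea, against 16.2% of all probe sets tested. The median difference, Notch3-/- minus Notch3+/+, was -0.06 over the members and -0.01 over all probe sets tested.

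**Figure D1:**
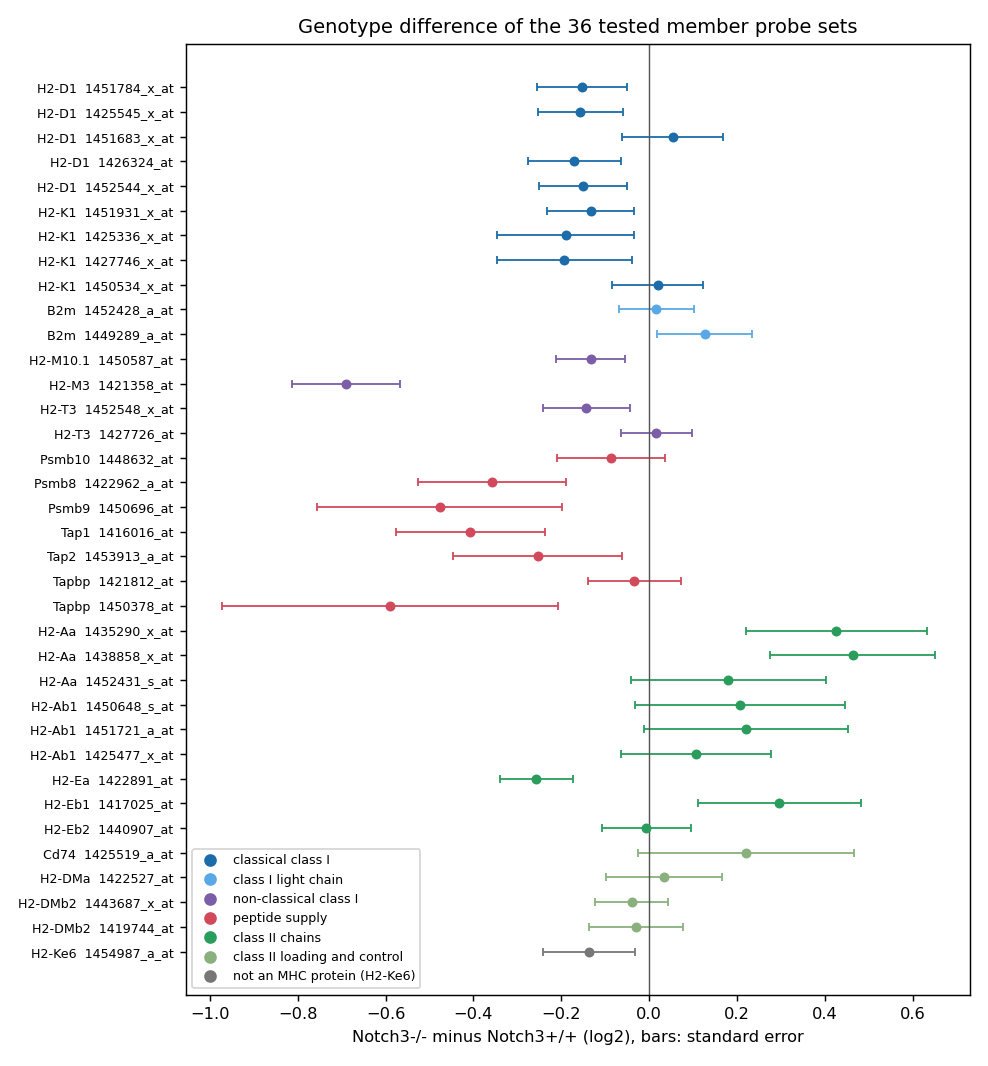
Difference between genotypes (Notch3-/- minus Notch3+/+, log2, x axis) with its standard error for each of the 36 tested member probe sets, coloured by role. All 7 peptide supply probe sets lie left of 0, most class II chain probe sets lie right of it, and H2-M3, at -0.69, lies farthest from 0.

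Some facts of the arrays bear on these values. Both Notch3 probe sets were lower in every Notch3-/- pool (differences of -3.92 and -3.72). Acta2, Tagln and Myh11, defining genes of smooth muscle, read between 11.80 and 13.25 in all 6 pools. Of the 7 smooth muscle markers 0 passed and the median difference was -0.06, but Cnn1 (0.51) was higher and Myocd (-0.39) and Smtn (-0.58) lower in Notch3-/- arteries without overlap. Notch3-/- replicate 2 stood apart on the first principal component, at 39.5 against -17.1 to 5.85. Among markers of cells that carry MHC molecules, all 14 macrophage genes were positive, with a median difference of 0.42, 0 passing and 7 at an unadjusted p under 0.05. The mean of the 14 was 7.04, 6.84 and 6.37 in Notch3+/+ replicates 1, 2 and 3 and 7.40, 6.95 and 7.20 in Notch3-/- replicates 1, 2 and 3. Of 9 dendritic cell markers on the array, 4 reached the level filter, with a median difference of 0.03, and Itgax, Xcr1, Ccr7, Irf4 and Siglech did not. Of 5 B cell markers 2 reached it, and Cd79a, Cd79b and Ms4a1 did not. Of 7 T and NK cell markers 3 reached it (Cd3e, Cd4 and Cd8a, median -0.07). Of 8 endothelial markers 7 were negative, with a median of -0.25, 0 passing and 3 at an unadjusted p under 0.05. The 7 mast cell markers were all positive (median 0.76, 0 passing, 4 at an unadjusted p under 0.05), and the 6 tested skeletal muscle markers had a median of -0.21. In such whole-artery RNA, fewer cells of a type and less RNA per cell cannot be told apart.

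The classical class I genes H2-K1 and H2-D1, the heavy chains found on nearly all cells, had small negative differences on most of their probe sets, which rested largely on 1 Notch3+/+ pool. On its brightest probe set (1451931_x_at) H2-K1 read 10.25, 10.25 and 10.52 in the Notch3+/+ pools and 10.25, 10.23 and 10.14 in the Notch3-/- pools. The genotypes overlapped, and Notch3+/+ replicate 3 stood highest. The difference was -0.13 (SE 0.10), with an adjusted p of 0.633 in limma, and was -0.04 without that pool. On its brightest probe set (1451784_x_at) H2-D1 read 10.75, 10.82 and 11.08 against 10.78, 10.73 and 10.68, a difference of -0.15 (SE 0.10, adjusted p = 0.604 in limma). Again Notch3+/+ replicate 3 was the highest pool, and without it the difference was -0.06. Of the 9 tested probe sets of both genes, 7 were negative, against 51.9% of all probe sets tested. The range of the 9 was -0.19 to 0.05. The 2 genes are near copies of each other, and 8 of these 9 probe sets end in x_at, the maker's mark for probes that can also bind related transcripts, so their signals can be mixed.

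B2m, the light chain shared by class I proteins, had small positive differences on both of its probe sets, and neither passed. Its brightest probe set (1452428_a_at) read 10.99, 11.10 and 11.20 in Notch3+/+ and 11.15, 11.05 and 11.14 in Notch3-/- pools. The difference was 0.02 (SE 0.08), and its sign turned under further quantile normalization (-0.02). The other probe set (1449289_a_at) read 10.71, 10.93 and 11.10 against 11.02, 11.08 and 11.02, a difference of 0.13 (SE 0.11) that was between 0.03 (replicate 1 of Notch3+/+ left out) and 0.22 (replicate 3 of Notch3+/+ left out). Both probe sets overlapped between genotypes, with adjusted p of 0.955 and 0.676 in limma. Notch3+/+ replicate 1 was the lowest pool on both.

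H2-M3, a class I protein known for presenting formylated peptides of bacteria and mitochondria, had the largest difference of all tested members. It read 6.37, 6.83 and 6.65 in the Notch3+/+ pools and 5.92, 6.0 and 5.86 in the Notch3-/- pools. Every Notch3-/- pool lay below every Notch3+/+ pool. The Notch3+/+ mean was 6.62 ± 0.23 (SD, n = 3) and that of Notch3-/- arteries 5.93 ± 0.07 (SD, n = 3). The difference of -0.69 (SE 0.12), or 1.61-fold lower, had an adjusted p of 0.108 in limma and did not pass. Over the alternatives tried the difference ran from -0.84 to -0.58 and the adjusted p from 0.00901 to 0.428, and it passed in 1 of them, with weights estimated for each array. H2-M3 has 1 probe set on this array, so no second one could be set beside it.

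Of the 10 other class I genes, 2 reached the level filter and neither passed the test. H2-T3, an intestinal class I protein also known as TL antigen, read 5.07, 4.85 and 5.12 against 4.96, 4.78 and 4.87 on the brighter of its probe sets, with a difference of -0.14 (SE 0.10, adjusted p = 0.617 in limma). The other H2-T3 probe set gave 0.02. H2-M10.1, a class I gene of the vomeronasal organ, read 4.66, 4.55 and 4.68 against 4.56, 4.45 and 4.48, a difference of -0.13 (SE 0.08). Both genes overlapped between genotypes. The other 9 probe sets, of H2-Q2, H2-Q5, H2-Q10, H2-T18, H2-T24, H2-Bl, H2-D4 and H2-M9, were below the level filter, with differences from -0.16 to 0.32 that were not tested. H2-Bl had the largest of these, with 3.37, 3.93 and 3.65 against 3.84, 4.15 and 3.93.

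**Figure D2:**
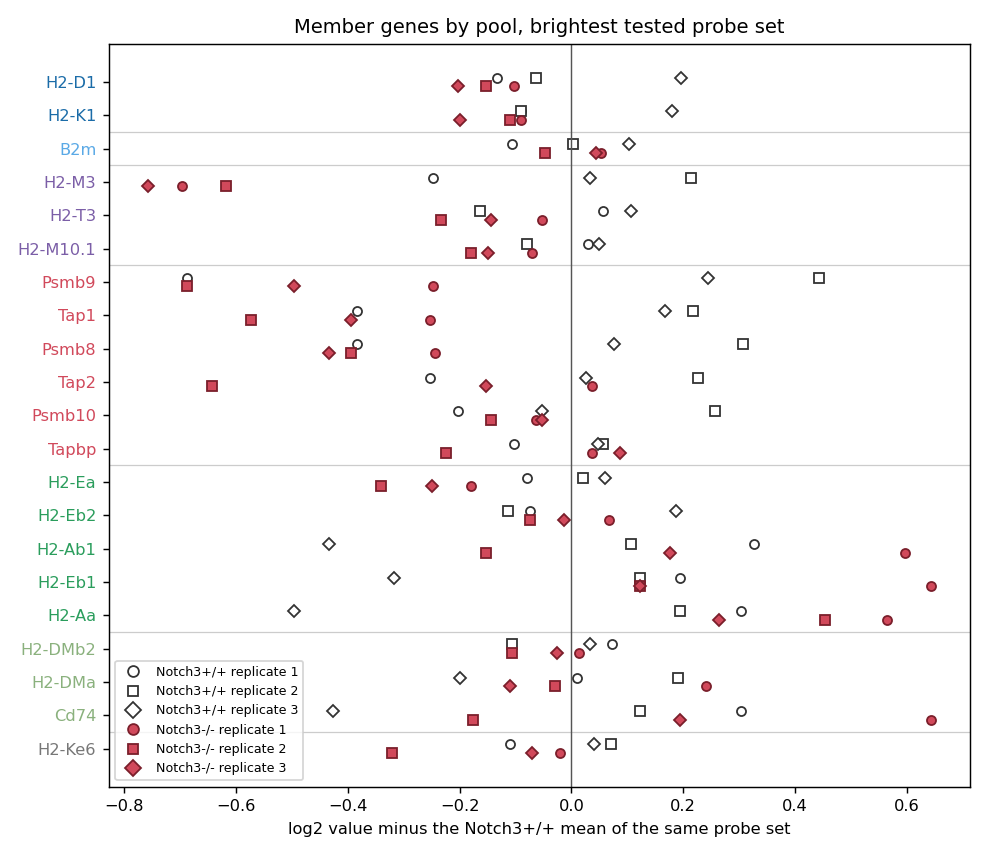
Log2 value of each pool minus the Notch3+/+ mean of the same probe set (x axis) for the 21 member genes with a tested probe set, each by its brightest, with open symbols for Notch3+/+, filled for Notch3-/- and 1 shape per replicate number. Only H2-M3 and H2-Ea have all filled symbols left of all open ones, and the peptide supply genes spread widely among the open symbols.

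The genes that supply peptides to class I were all on the lower side in Notch3-/- arteries, but none passed and every one overlapped between genotypes. All 7 of their tested probe sets, of 6 genes, were negative, against 51.9% of all probe sets tested. Their median was -0.36 and their range -0.59 to -0.03. Psmb9, an inducible catalytic subunit that turns the standard proteasome into the immunoproteasome, read 5.71, 6.84 and 6.64 in Notch3+/+ and 6.15, 5.71 and 5.90 in Notch3-/- pools. The spread within Notch3+/+ was larger than the difference, since Notch3+/+ replicate 1 equalled the lowest Notch3-/- pool. The difference was -0.48 (SE 0.28), with an adjusted p of 0.558 in limma, and ran from -0.82 without Notch3+/+ replicate 1 (adjusted p = 0.149) to -0.25 without Notch3+/+ replicate 2.

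Psmb8, another inducible subunit, read 6.89, 7.58 and 7.35 against 7.03, 6.88 and 6.84, a difference of -0.36 (SE 0.17, adjusted p = 0.483 in limma). With Notch3+/+ replicate 1 left out it was -0.55 (adjusted p = 0.178), and with replicate 2 left out -0.20. Psmb10, the third inducible subunit, read 7.18, 7.64 and 7.33 against 7.32, 7.24 and 7.33, a difference of -0.09 (SE 0.12), which was -0.19 without Notch3+/+ replicate 1 and 0.04 without Notch3+/+ replicate 2. As with Psmb9, Notch3+/+ replicate 2 was the highest pool for both.

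Tap1, a chain of the peptide pump, read 5.81, 6.41 and 6.36 in Notch3+/+ and 5.94, 5.62 and 5.80 in Notch3-/- pools. Its difference was -0.41 (SE 0.17), or 1.33-fold lower, with an adjusted p of 0.434 in limma. Tap2, the partner chain, read 6.17, 6.65 and 6.45 against 6.46, 5.78 and 6.27, a difference of -0.25 (SE 0.19, adjusted p = 0.643). Leaving out Notch3-/- replicate 2 gave -0.06 for Tap2, Notch3+/+ replicate 2 -0.14, Notch3+/+ replicate 1 -0.38 and Notch3-/- replicate 1 -0.40. In Tap1, as in Psmb9 and Psmb8, replicates 2 and 3 of Notch3+/+ stood above the other 4 pools. Of these, Psmb9 shares the promoter stretch printed above with Tap1, and Psmb8 does not. The 3 further Tap1 probe sets and the further Psmb8 probe set were below the level filter, with differences of -0.07 to 0.08.

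Tapbp, or tapasin, which holds class I beside the pump, gave a different picture on each of its probe sets. The brighter (1421812_at) read 9.11, 9.27 and 9.26 against 9.25, 8.99 and 9.30, a difference of -0.03 (SE 0.11), and its sign turned with array weights (0.03) and without Notch3-/- replicate 2 (0.06). The dimmer (1450378_at) read 7.45, 7.48 and 7.41 in Notch3+/+ and 7.46, 5.83 and 7.28 in Notch3-/- pools. Its difference of -0.59 (SE 0.38, adjusted p = 0.594 in limma) came from Notch3-/- replicate 2, without which it was -0.08.

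Nlrc5, a transactivator of class I and peptide supply genes, had the smallest p among the genes of the interferon gamma route listed beside the members. It read 4.12, 5.78 and 5.19 in Notch3+/+ and 4.39, 4.38 and 4.07 in Notch3-/- pools, with a difference of -0.75 (SE 0.37, adjusted p = 0.499 in limma). Replicates 2 and 3 of Notch3+/+ again stood above the rest. Among 15 tested genes of the interferon gamma route to MHC transcription, 0 passed in either direction and 0 had an unadjusted p under 0.05, with a median of -0.05. Ifngr1, a chain of the interferon gamma receptor, gave -0.30, Irf2 0.29 and Nfya, a subunit of the factor that binds CCAAT, -0.17. Ifng itself and the feedback inhibitor Socs1 were below the level filter. Among 16 other genes of peptide supply and loading 0 passed in either direction, and the median was 0.04. The largest difference there was that of Ctss, cathepsin S, which trims the class II invariant chain. Ctss read 8.38, 8.19 and 7.58 against 8.75, 8.53 and 8.67 (0.60, SE 0.19, adjusted p = 0.337 in limma, no overlap). The proteasome subunit Psmb5, which Psmb8 replaces, gave -0.13, Ctsl 0.12 and Psme3 0.11.

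Class II chain genes were mostly on the higher side in Notch3-/- arteries, again with overlapping pools. Of 9 tested probe sets, of 5 genes, 7 were positive and 2 negative, against 51.9% negative over all probe sets tested. Their median was 0.21 and their range -0.26 to 0.46. H2-Aa, the alpha chain of the A molecule, read 8.87, 8.76 and 8.07 against 9.13, 9.02 and 8.83 on its brightest probe set (1435290_x_at). The difference was 0.43 (SE 0.21, adjusted p = 0.490 in limma), and 0.18 without Notch3+/+ replicate 3, the lowest pool on all 3 tested H2-Aa probe sets. On 1438858_x_at it read 7.55, 7.35 and 6.83 against 7.79, 7.83 and 7.50, a difference of 0.46 (SE 0.19, adjusted p = 0.416), and 0.26 without that pool. The third tested probe set (1452431_s_at) read 6.74, 6.57 and 6.13 against 7.01, 6.24 and 6.73, a difference of 0.18 (SE 0.22, adjusted p = 0.774), which was 0.01 without Notch3-/- replicate 1 and 0.39 without Notch3-/- replicate 2.

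H2-Ab1, the beta chain of the A molecule, read 7.65, 7.43 and 6.89 against 7.92, 7.17 and 7.50 on its brightest probe set, a difference of 0.21 (SE 0.24, adjusted p = 0.756 in limma) and of -0.01 without Notch3+/+ replicate 3. With replicate 1 or 2 of Notch3-/- left out it was 0.01 or 0.39. The other 2 gave 0.22 (1451721_a_at, SE 0.23) and 0.11 (1425477_x_at, SE 0.17). H2-Eb1, the beta chain of the E molecule, read 7.56, 7.49 and 7.05 against 8.01, 7.49 and 7.49, a difference of 0.30 (SE 0.19, adjusted p = 0.579), and of 0.12 without Notch3-/- replicate 1 or 0.14 without Notch3+/+ replicate 3. On the brightest probe sets of H2-Aa, H2-Ab1 and H2-Eb1 the lowest pool was Notch3+/+ replicate 3 and the highest Notch3-/- replicate 1. On 1425477_x_at of H2-Ab1 the lowest was Notch3-/- replicate 2, at 5.10 against 5.13 in Notch3+/+ replicate 3.

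H2-Ea, the alpha chain of the E molecule, went the other way. Its tested probe set read 6.30, 6.40 and 6.44 in Notch3+/+ and 6.20, 6.04 and 6.13 in Notch3-/- pools, and the genotypes did not overlap. The difference was -0.26 (SE 0.08), or 1.20-fold lower, with an adjusted p of 0.332 in limma. The other 2 H2-Ea probe sets lay below the level filter, at 1.90 to 2.40 in every pool. Mice of the b haplotype, among them C57BL/6, make no E alpha chain because the gene's promoter is deleted, and RefSeq lists it as a pseudogene. H2-Eb2, a further beta chain gene, read 4.98, 4.94 and 5.24 against 5.12, 4.98 and 5.04, a difference of -0.01 (SE 0.10).

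Cd74, the invariant chain that guards the class II groove, read 8.48, 8.30 and 7.75 in Notch3+/+ and 8.82, 8.0 and 8.37 in Notch3-/- pools. The difference was 0.22 (SE 0.25, adjusted p = 0.747 in limma). Leaving out Notch3+/+ replicate 3 or Notch3-/- replicate 1 brought it to 0.01, and leaving out Notch3+/+ replicate 1 or Notch3-/- replicate 2 to 0.37 or 0.42. Its order of pools, with Notch3-/- replicate 1 highest and Notch3+/+ replicate 3 lowest, was also that of H2-Ab1 and of the macrophage marker mean at both ends. The mean of the 7 mast cell markers had the same ends, at 7.29, 6.56 and 6.26 against 7.72, 7.12 and 7.42. The part of macrophage or other cell content in the Cd74 and H2-Ab1 values was not tested. H2-DMa, a chain of the exchange factor that swaps Cd74 fragments for peptides, read 5.35, 5.53 and 5.14 against 5.58, 5.31 and 5.23, a difference of 0.03 (SE 0.13), which was -0.14 with array weights. Its partner H2-DMb2 gave -0.04 (SE 0.08) and -0.03 (SE 0.11) on its tested probe sets. Probe sets shared by H2-DMb2 and H2-DMb1, which belong to no single member, gave 0.21 (1449580_s_at, SE 0.16) and 0.14 (1418638_at, SE 0.11), both with overlap.

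The class II regulators were below the level filter. Ciita, the transactivator that switches class II genes on, read 3.35, 3.59 and 3.42 against 3.34, 3.39 and 3.35 on its brightest probe set. H2-Oa and H2-Ob, which restrain H2-DM in B cells, read 3.58, 3.73 and 3.67 against 3.71, 3.35 and 3.57, and 2.05, 2.12 and 1.95 against 1.95, 2.31 and 1.87. Of the 27 member probe sets below the filter, the genotypes did not overlap for 4, and none was tested. Of these 3 were lower in Notch3-/- (11.1%, against 7.58% of all 18010 probe sets below the filter) and 1 was higher (3.7%, against 2.47%), so the count stands near the background. H2-Aa (1443783_x_at) was higher, at 2.85, 2.29 and 2.36 against 3.42, 3.17 and 2.91. Ciita (1447075_at) and H2-D1 (1427651_x_at and 1451934_at) were lower, with differences of -0.22 to -0.16.

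H2-Ke6, the member that encodes a dehydrogenase, read 6.19, 6.37 and 6.34 against 6.28, 5.98 and 6.23, a difference of -0.14 (SE 0.10, adjusted p = 0.647 in limma). MHC-like proteins outside the H2 names were set beside the members. Of 6 tested, 0 passed in either direction and 0 had an unadjusted p under 0.05, with a median of 0.05. Mr1, which presents vitamin B metabolites, gave -0.16, the protein C receptor gene Procr -0.10, the iron regulator gene Hfe 0.07 and Azgp1 0.08.

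**Figure D3:**
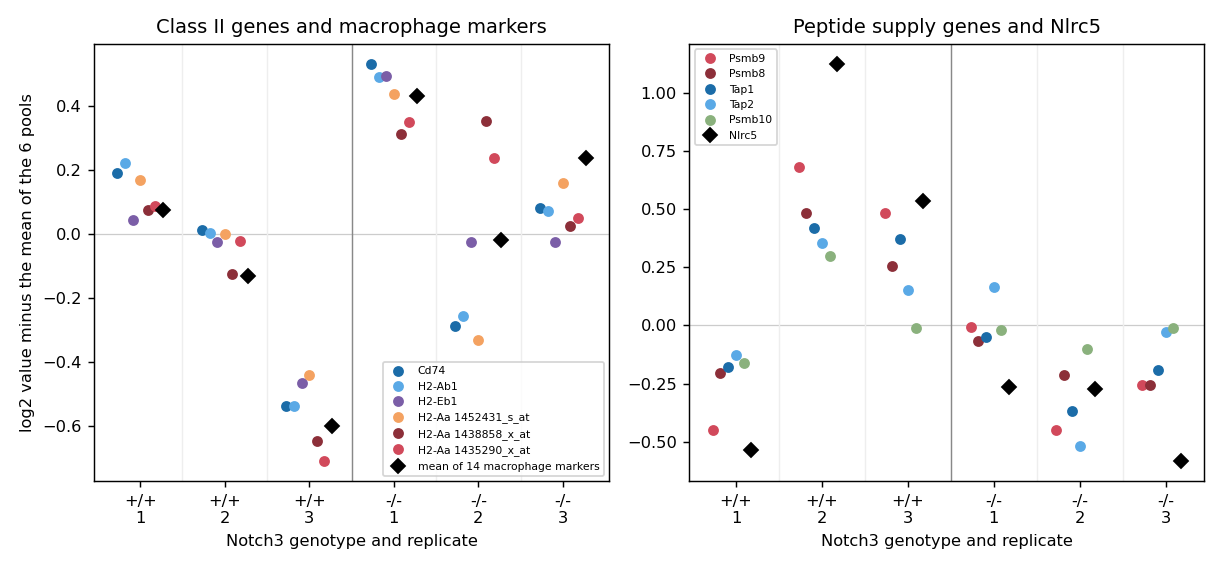
Log2 value of each pool minus the mean of the 6 pools (y axis), by genotype and replicate number (x axis), for class II genes beside the mean of 14 macrophage markers (left) and for peptide supply genes beside Nlrc5 (right). On the left the pools are lowest in Notch3+/+ replicate 3 and the H2-Aa probe sets part in Notch3-/- replicate 2, and on the right Notch3+/+ replicate 2 stands highest for all 6 genes shown.

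Probe sets of 1 gene were then set against each other, since a sequence difference between strains under the probes can move 1 probe set and leave another. For every gene with at least 2 tested probe sets, each probe set's value minus that of the gene's brightest was compared between genotypes with limma over all 10093 such pairs. The members gave 15 pairs in 8 genes. Of these 0 passed, against 0 of 10093 (0%) over all pairs, and 0 had an unadjusted p under 0.05, against 8.87%. The smallest adjusted p of a member pair was 0.555. The genotypes did not overlap in 3 of 15 pairs, against 16.8% of all pairs. Probe sets of opposite sign occurred in 3 of 8 member genes (H2-D1, H2-K1 and H2-T3), against 49.3% of the 5915 genes with at least 2 tested probe sets. The median span between the highest and lowest difference in a gene was 0.19 over the members and 0.18 over all.

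The pair with the smallest adjusted p was in H2-D1. Probe set 1451683_x_at minus 1451784_x_at was -3.09, -3.11 and -3.03 in Notch3+/+ and -2.88, -2.87 and -2.86 in Notch3-/- pools. The genotypes differed by 0.21 (SE 0.09), without overlap and with a spread within genotypes of 0.04 and 0.01 (SD, n = 3). The other 3 H2-D1 pairs differed between genotypes by -0.02 to 0.00. The pool differences of H2-D1 were thus shared by 4 of its 5 tested probe sets, which gave -0.17 to -0.15, and the fifth gave 0.05.

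The other 2 pairs without overlap were 1450534_x_at against 1451931_x_at in H2-K1 and 1427726_at against 1452548_x_at in H2-T3. The H2-K1 pair was -5.85, -5.82 and -5.84 in Notch3+/+ and -5.62, -5.80 and -5.63 in Notch3-/- pools, a difference of 0.15 (SE 0.10, adjusted p = 0.637 in limma). The H2-T3 pair was -0.81, -0.71 and -0.78 against -0.69, -0.52 and -0.61, a difference of 0.16 (SE 0.10, adjusted p = 0.628). In all 3 pairs the value was higher in Notch3-/- arteries. The probe set with the higher reading is always the one subtracted, so its place in the pair is no finding. The part of strain sequence in these pairs was not tested.

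Larger gaps lay in single pools. The Tapbp probe sets differed by -1.66, -1.79 and -1.85 in Notch3+/+ and by -1.79, -3.16 and -2.02 in Notch3-/- pools, so replicate 2 of Notch3-/- stood apart. The span of Tapbp, 0.56, was exceeded by 3.04% of all genes with at least 2 tested probe sets. H2-Aa showed a gap in the same pool. Probe set 1452431_s_at minus 1435290_x_at was -2.13, -2.19 and -1.94 in Notch3+/+ and -2.12, -2.78 and -2.10 in Notch3-/- pools, whereas 1438858_x_at stayed within -1.41 to -1.19 of 1435290_x_at in all 6. In Notch3-/- replicate 2, Cd74 and the brightest H2-Ab1 probe set were the lowest of the Notch3-/- pools, like 1452431_s_at, while both x_at probe sets of H2-Aa read above every Notch3+/+ pool.

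**Figure D4:**
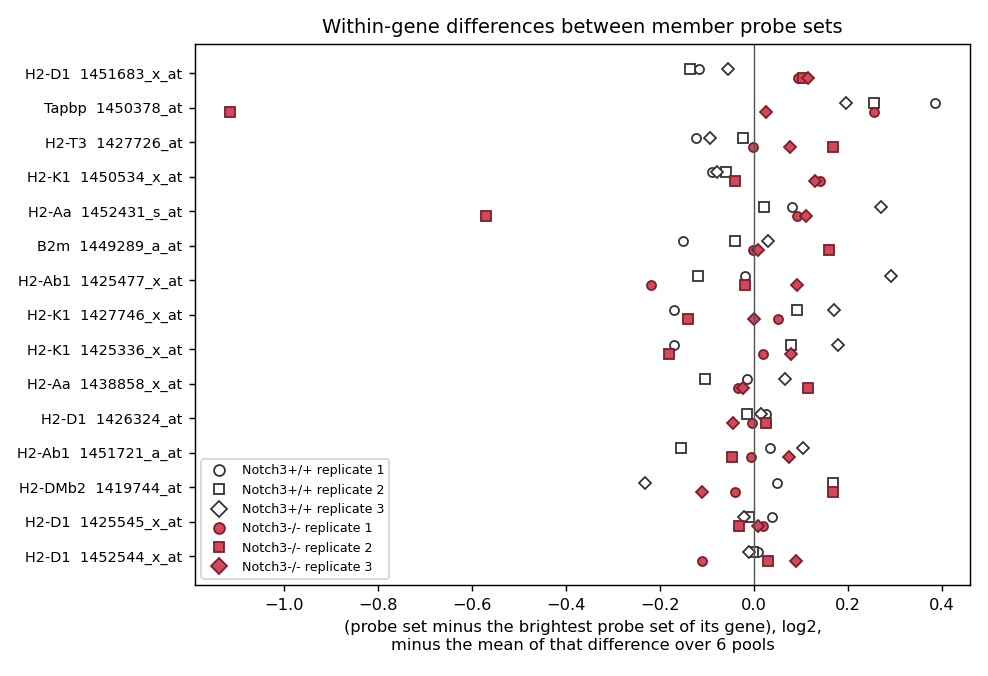
Difference between a probe set and the brightest probe set of its gene, minus the mean of that difference over 6 pools (log2, x axis), for the 15 member pairs, ordered by p. Open symbols are Notch3+/+ and filled ones Notch3-/-. H2-D1 (1451683_x_at) parts the genotypes by 0.21, and in Tapbp and H2-Aa (1452431_s_at) the filled square, Notch3-/- replicate 2, lies far left of the other pools.

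Genes around the members were then set beside them. Of 182 tested probe sets of 122 genes other than members, lying between Notch3 and the far end of the H2 cluster, 0 passed in limma and 13 (7.14%) had an unadjusted p under 0.05, of which 7 were higher and 6 lower. The 32 tested probe sets of members in the cluster had 4 (12.5%). Both shares stand beside 11.4% over all probe sets. The genotypes did not overlap for 11 of 52 neighbours (21.2%) between Notch3 and the first cluster member and for 12 of 130 (9.23%) within the cluster's span, against 16.2% over all. The heat shock genes Hspa1a and Hspa1b, which lie among the H2 genes, were the neighbours with the smallest p, at 0.46 (SE 0.10, adjusted p = 0.193) and 0.63 (SE 0.14, adjusted p = 0.194 in limma). They were followed by Abcf1 at -0.46 (SE 0.11, adjusted p = 0.204).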

How the data were processed

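The deposited values are log2 expression per probe set made with RMA (background correction, quantile normalization, summary of probes), per the submitters' processing notes. The sources used here give neither its version nor the chip definition. That the scale is log2 was taken from the range of values, 1.38 to 13.38. The file gives no detection calls, batch or scan day, and 3 arrays per genotype limit the precision.

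The 64 chip controls were left out. Symbols came from the platform annotation (34945 probe sets with 1 symbol, 932 with several, 9160 with none). Probe sets with a mean of at least 3.83, the 40th percentile, went into limma 3.58.1 under R 4.3.3 (lmFit, eBayes, genotype as the only term, two-sided, Benjamini-Hochberg over 27027, threshold 0.05). The same fit was run on within-gene probe set differences. Both were tried on simulated data with independent noise for each probe set, so shifts shared by a whole pool were not part of that trial. Changes are Notch3-/- minus Notch3+/+.

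Members and lists were chosen with earlier results of these data known. Values per pool are given for the genes of class I, peptide supply and class II fixed by name, for the 8 largest positive and 8 largest negative tested members and for the 5 genes whose probe sets differed most; others complete the account of the members and were chosen after their values were seen. From other lists up to 4 genes with the smallest p are named. Alternatives varied filter, variance model, normalization, centring, weights, block, threshold, reference probe set and omitted array.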

Additional observations from a re-analysis of the deposited data

How the results depend on the processing

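No member passed an adjusted p of 0.05 under any alternative except limma's array weights, where 1 did (H2-M3, -0.84, adjusted p = 0.00901) and 978 of all probe sets passed. At a threshold of 0.1 the members called were also 0. With the replicate number as a replicate block 0 members passed, and 5 had an unadjusted p under 0.05 against 4 without it. Deviations of same-numbered pools correlated at 0.24, 0.05 and -0.07 across probe sets, so the numbers were not taken to pair the pools. Leaving out 1 array gave 0 called members each time and between 1 and 8 with an unadjusted p under 0.05. The median of the members stayed between -0.11 and -0.04. Member pairs called within a gene were 0 under every alternative.

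Of 416 alternative values of 30 named probe sets, 15 turned sign, in 8 probe sets. They were B2m 1452428_a_at (-0.02 with quantile normalization, and -0.04 to 0.07 with an array left out), H2-DMa (-0.14 with array weights, -0.07 to 0.13), Tapbp 1421812_at (0.03 with array weights, -0.09 to 0.06), and, with an array left out only, H2-Ab1 1450648_s_at (-0.01 to 0.39), H2-D1 1451683_x_at (-0.02 to 0.18), H2-K1 1450534_x_at (-0.03 to 0.11), H2-T3 1427726_at (-0.04 to 0.06) and Psmb10 (-0.19 to 0.04). The cause was not tested. The values carry no background measure, so what is limited by signal could not be set.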

Other observations

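A further 15 probe sets are annotated to several genes of which at least 1 has an H2 symbol, and so belong to no single member. Of these 11 were tested, 6 positive and 5 negative. In limma 0 passed and the smallest adjusted p was 0.118. An unadjusted p under 0.05 was found for 3 of 11, against 11.4% of all probe sets tested. The genotypes did not overlap for 3 of 11, against 16.2% of all probe sets tested. Probe set 1447260_at (H2-Bl, Gm38417 and LOC547349) read 4.45, 4.71 and 4.57 in Notch3+/+ and 5.09, 5.14 and 5.44 in Notch3-/- pools. Its difference was 0.65 (SE 0.12), without overlap. Probe set 1449556_at (H2-T23 and H2-T-ps) read 8.68, 8.88 and 8.68 against 8.35, 8.58 and 8.23. Its difference was -0.36 (SE 0.11, adjusted p = 0.319 in limma), also without overlap. The third with an unadjusted p under 0.05, 1449875_s_at (H2-T9, H2-T22 and H2-T10), read 8.42, 8.72 and 8.74 against 8.17, 8.44 and 8.29. Its difference was -0.33 (SE 0.12, adjusted p = 0.372 in limma), with overlap. Another probe set of the same genes, 1439121_at, read 4.89, 4.83 and 5.15 against 4.72, 4.78 and 4.77. There the difference was -0.20 (SE 0.10, adjusted p = 0.507 in limma), without overlap.

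The widest spread among these lay within Notch3+/+ and not between genotypes. Probe set 1431008_at, shared by 2 genes of the H2-Q group, read 6.35, 7.38 and 8.27 in Notch3+/+ and 7.27, 7.72 and 7.15 in Notch3-/- pools. Probe set 1418536_at, shared by 2 other genes of that group, read 5.42, 6.55 and 7.25 against 6.23, 7.21 and 6.44. Another of the group, 1451644_a_at, read 4.13, 4.65 and 5.53 against 4.76, 5.37 and 4.72. In all of them Notch3+/+ replicate 1 was the lowest pool and replicate 3 the highest, and the pools within a genotype were an SD of up to 0.96 (n = 3) apart, against differences between genotypes of 0.05, 0.22 and 0.18. The B2m probe sets also had Notch3+/+ replicate 1 as their lowest pool.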
